A study of Drosophila melanogaster with 2 samples.

Results

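The regions described here are 236 places of Dan occupancy on sequence that is mostly heterochromatic, mapped by chromatin immunoprecipitation and sequencing (ChIP-seq) in whole Drosophila melanogaster embryos. They lie on the Y chromosome, on scaffolds that are not placed in a chromosome arm, or on the base of the X from 22000000 bp on, in the dm6 build. They were chosen from the 1330 regions of the list ranked over both replicates that had an irreproducible discovery rate (IDR) of at most 0.01. The IDR measures how well a region's rank is shared by 2 sets of calls. The other 1094 regions past that threshold lay on the rest of the arms and serve for comparison, as do 4986 weaker regions of the same scaffolds, Y and X base. All embryos belonged to a single group: the strain dan-GFP, at 0 to 8 h of age and with no treatment. The strain carries Dan fused to eGFP, and its label gives an insertion targeting dan. The group had 2 biological replicates, sonicated to 200 to 800 bp and precipitated through the GFP tag. The sources used here do not say which promoter drives the fusion. Sex was not recorded, so a signal on Y comes from an unknown share of the nuclei, and no cell type can be told from the lists. The depth of the libraries is unknown, because no read counts come with the lists.

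Dan is the nuclear product of distal antenna, a gene known for roles in antenna and eye identity and in neuroblasts, and its protein has a Pipsqueak-type DNA-binding domain. Heterochromatin is the compact part of the genome around centromeres, at telomeres and over most of Y. In the fly it holds satellite DNA (short units repeated in tandem), transposable elements and the ribosomal DNA (rDNA). The rDNA arrays of X and Y encode the rRNAs, and the retrotransposon R1 inserts at a fixed place in the 28S gene. HeT-A and TART are retrotransposons that maintain the fly's telomeres, and dodeca is a GC-rich satellite of the chromosome 3 centromere region.

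The sequences that stand for the main groups of regions follow first, read on the plus strand of the Release 6 assembly from RefSeq. The first pair are tandem pentanucleotide arrays, with the unit in capitals (AAGGC in the first, AACAC in the second).
AAGGC array, chrUn_CP007100v1:6137-6412: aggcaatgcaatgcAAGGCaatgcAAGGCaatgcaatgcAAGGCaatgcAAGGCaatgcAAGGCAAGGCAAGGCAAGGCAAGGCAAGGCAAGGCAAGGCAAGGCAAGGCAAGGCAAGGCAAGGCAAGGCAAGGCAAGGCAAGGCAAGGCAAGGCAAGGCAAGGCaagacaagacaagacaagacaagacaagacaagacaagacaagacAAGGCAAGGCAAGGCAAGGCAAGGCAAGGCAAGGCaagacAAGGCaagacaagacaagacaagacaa
AACAC array, chrUn_DS485995v1:94-313: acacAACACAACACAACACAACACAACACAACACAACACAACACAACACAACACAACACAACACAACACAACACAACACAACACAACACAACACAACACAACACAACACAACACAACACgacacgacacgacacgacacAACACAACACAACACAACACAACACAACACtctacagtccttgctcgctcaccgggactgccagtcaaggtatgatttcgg
The next is the middle of the strongest dodeca region, with the 8-base core of the unit in capitals.
Dodeca, chrUn_DS483724v1:1524-1684: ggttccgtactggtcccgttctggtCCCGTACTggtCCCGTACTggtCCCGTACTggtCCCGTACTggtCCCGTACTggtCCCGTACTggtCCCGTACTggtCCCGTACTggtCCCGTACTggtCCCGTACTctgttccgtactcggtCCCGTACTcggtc
The next 4 are 151-bp windows around the strongest summits of 4 R1 families, in the order of their position along the element. CAGTG or its complement is in capitals where it occurs. The windows of the families at 2637 to 3845 and at 4224 to 4814 do not hold it.
R1 family at the first 1046 bases, chrX:22373253-22373403: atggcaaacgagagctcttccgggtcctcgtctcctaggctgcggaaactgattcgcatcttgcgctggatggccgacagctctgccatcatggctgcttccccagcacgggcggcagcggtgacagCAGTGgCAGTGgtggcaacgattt
R1 family at 1329 to 1872, chrX_DS483897v1_random:877-1027: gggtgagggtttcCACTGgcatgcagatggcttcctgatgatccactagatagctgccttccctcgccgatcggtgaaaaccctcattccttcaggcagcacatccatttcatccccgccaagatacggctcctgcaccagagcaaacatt
R1 family at 2637 to 3845, chrX_DS484345v1_random:896-1046: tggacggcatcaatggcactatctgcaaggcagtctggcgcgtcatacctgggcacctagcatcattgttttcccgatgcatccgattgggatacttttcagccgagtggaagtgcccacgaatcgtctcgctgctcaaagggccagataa
R1 family at 4224 to 4814, chrUn_CP007120v1:53216-53366: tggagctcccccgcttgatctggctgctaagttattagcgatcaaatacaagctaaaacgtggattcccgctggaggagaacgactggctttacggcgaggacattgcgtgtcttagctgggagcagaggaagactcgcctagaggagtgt
The strongest region on the X base covers a junction, shown with the bases that match the annotated gene 28SrRNA:CR45837 in capitals.
28S junction, chrX:23217004-23217263: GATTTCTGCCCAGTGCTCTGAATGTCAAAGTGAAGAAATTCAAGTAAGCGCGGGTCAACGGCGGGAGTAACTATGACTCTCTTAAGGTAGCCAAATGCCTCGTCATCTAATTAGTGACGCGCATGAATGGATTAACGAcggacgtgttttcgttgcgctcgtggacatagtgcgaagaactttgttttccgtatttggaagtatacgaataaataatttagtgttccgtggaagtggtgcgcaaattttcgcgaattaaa
The last pair are windows around the strongest summits on the telomeric elements, again with CAGTG or its complement in capitals. The HeT-A window does not hold it.
HeT-A, chrY_DS485927v1_random:372-522: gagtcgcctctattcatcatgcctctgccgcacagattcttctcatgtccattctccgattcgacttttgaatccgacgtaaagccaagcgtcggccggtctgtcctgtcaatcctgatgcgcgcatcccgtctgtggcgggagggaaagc
TART-A, chrY_DS485143v1_random:238-388: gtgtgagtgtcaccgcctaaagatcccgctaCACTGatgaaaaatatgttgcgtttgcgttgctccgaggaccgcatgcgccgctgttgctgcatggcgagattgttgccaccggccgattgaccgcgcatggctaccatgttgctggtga

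The 236 regions were spread unevenly over these sequences. Scaffolds assigned to X held 92, scaffolds without a place in the dm6 names (unplaced) 63, the X base 49, scaffolds assigned to Y 25 and the Y chromosome itself 7. Past the threshold were 236 of 5222 ranked regions of these sequences, or 4.52%, beside 0.876% of 124883 on the rest of the arms and 1.02% of all 130105. The share was 11.7% on X scaffolds, 6.30% on the X base, 4.60% on Y scaffolds, 2.95% on unplaced scaffolds and 0.712% on Y. The IDR chose the regions, so these shares describe the choice and are not tested. The 180 regions on scaffolds lay on 117 different ones, of which 77 held 1 region each. The scaffold chrX_CP007103v1_random, 33320 bp long, held 8, more than any other, with 5 on R1 and 3 on the F element. A further 13 scaffolds held 3 or 4 regions. Of these, 7 carried only R1 regions (chrX_DS483971v1_random, chrX_DS483892v1_random, chrX_DS483885v1_random and chrX_DS484002v1_random with 4 each, and chrX_DS484268v1_random, chrX_DS483843v1_random and chrX_DS483660v1_random with 3 each). Both chrUn_CP007079v1 and chrUn_DS483724v1 had 3 dodeca regions. The Y scaffolds chrY_DS483677v1_random and chrY_DS484589v1_random had 2 and 3 telomeric-element regions, and chrY_DS483677v1_random held 1 more region without a match. On chrUn_DS483961v1 there were 2 R1 regions and 1 on another element, and on chrX_DS484084v1_random 1 and 2.

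Almost all of these regions lay on repeats. Set against the annotated transposable elements, the rRNA genes and the dodeca unit, 221 of 236 regions matched, or 93.6%, compared with 57 of the 1094 on the rest of the arms, or 5.21%, and 67.9% of the weaker regions of the same sequences. A match is at least 80% identity over at least 50% of the region, or at least 3 copies of the dodeca core. The rDNA class includes matches to annotated rRNA pseudogenes. R1 was the largest class, with 104 regions (44.1%), followed by 56 on 19 other elements, 36 on dodeca, 17 on telomeric elements and 8 on rDNA. This order depends on the list: of the 101 regions that are also in the authors' conservative list, R1 made up 78.2% and dodeca 0. The other 15 matched no annotated element, rRNA gene or dodeca unit. They include the AAGGC array, so a region with no match can still be a repeat. Read against all ranked regions of the same class on these sequences, 21.2% of 490 R1 regions were past the threshold, 9.52% of 84 on rDNA, 7.68% of 469 on dodeca and 7.23% of 235 on telomeric elements. Other elements had 2.41% of 2328, and regions with no match had 0.928% of 1616, close to the 0.876% on the rest of the arms. Copies of 1 element share sequence, so members of a class are not independent observations, and reads from 1 copy may be placed on another.

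**Figure D1:**
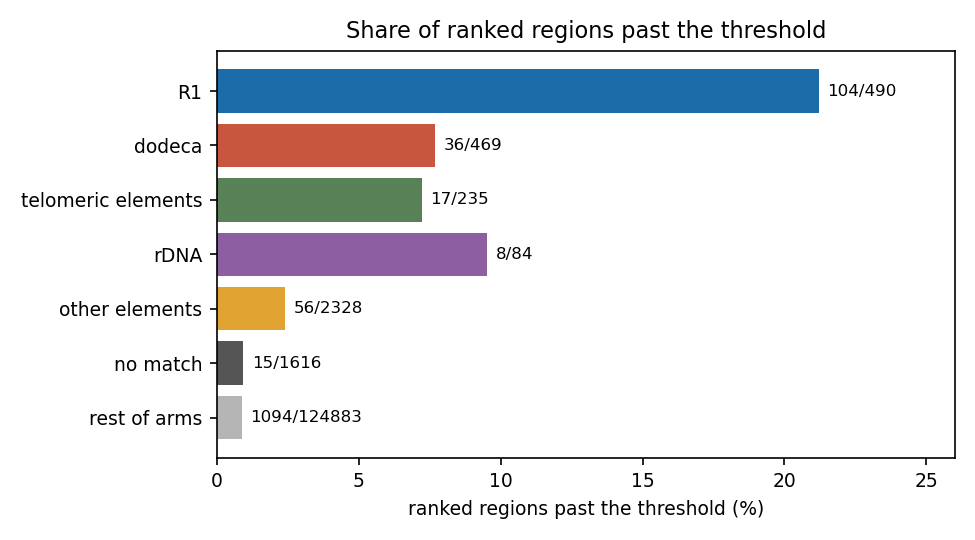
Percentage of ranked regions with an IDR of at most 0.01, by repeat class on the scaffolds, Y and X base, and for the rest of the arms in the bottom bar. The numbers at the bars are regions past the threshold and all ranked regions. R1 reached 21.2%, and regions with no match 0.928%.

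The signal is the value that the authors' peak caller gave each region, and its scale is not stated. Over the 236 regions it had a median of 97.3, with a lowest value of 2.38 and a highest of 3063, against a median of 104.0 and a range of 3.36 to 1079 on the rest of the arms. Only 1 region was above the highest value of the arms, 3 were among the 10 highest signals of all regions past the threshold and 11 among the 100 highest. These counts are to be read beside a membership of 236 among the 1330 regions past the threshold. Median signals of the classes were 279 on rDNA, 116 for regions without a match, 101 on R1, 99.1 on telomeric elements, 94.6 on other elements and 89.6 on dodeca. The rDNA class was the highest by its median, and the ranges of all classes overlapped. Of its 8 regions, 5 aligned only to annotated rRNA pseudogenes, so this median does not describe intact rRNA genes. Of the 236 regions, 224 were 350 bp wide, the largest width in the list. There were 10 overlapping neighbour pairs, which leaves 226 separate places, and 17 regions had a signal under 60.

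**Figure D2:**
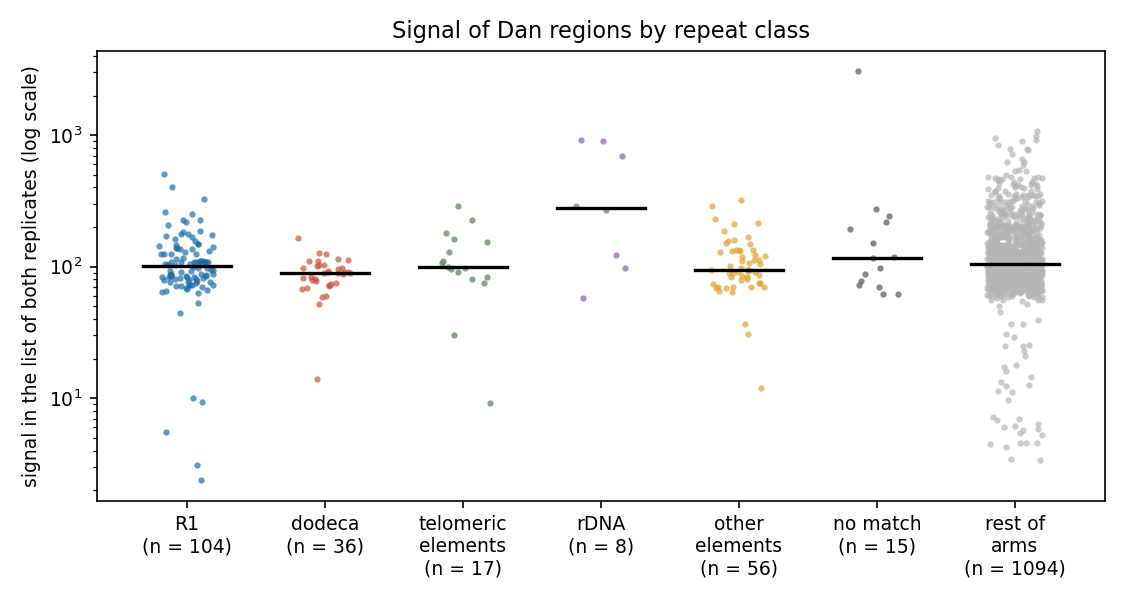
Signal of each region past the threshold in the list of both replicates, on a log scale, by repeat class, with the rest of the arms on the right. Each point is a region and each bar the median. The AAGGC array, a tandem repeat counted in the class with no match, stands at 3063, above every region of the arms. The rDNA class has the highest median, 279.

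The region with the highest signal of all 1330 was an array of the pentanucleotide AAGGC. It lay at chrUn_CP007100v1:6137-6412, on a scaffold of 10091 bp with no chromosome assignment and no annotated gene. Its signal was 3063 in the list of both replicates, with 1543 in replicate 1 and 1861 in replicate 2, the highest signals of these regions in both. The 276 bp held 33 copies of AAGGC and 14 of AAGAC, the printed array above. It was the only place in the assembly with at least 6 tandem copies of AAGGC. Another pentanucleotide array carried a region too: the single AACAC array of the assembly, 258 bp long on chrUn_DS485995v1, shared 165 bp with the region at 94 to 443. That region had a signal of 65.2, with 30.0 in replicate 1 and 44.5 in replicate 2, and its remaining bases matched Rt1b, a retrotransposon related to R1.

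The other simple satellites of the fly gave few or no regions. At least 2 tandem copies of AAGAC or of AACAC were in 1 region each of 236 (0.424%), beside 0.274% and 0.183% of the regions on the rest of the arms. The units AATAT and AAGAG were each in 0 of 236 regions, as were the units AATAC and AATAG, and in 0.0914% to 0.823% on the arms. Arrays of at least 6 tandem copies in the assembly numbered 36 for AATAT, 25 for AAGAG, 48 for AATAG and 6 for AATAC, and none of them overlapped a region past the threshold. Of these arrays, 3 for AATAT, 1 for AAGAG and 4 for AATAG overlapped any ranked region at all. Of 9 AAGAC arrays, 3 had a ranked region and 1 a region past the threshold, which is the array of the strongest region. The assembly holds only part of the satellite DNA of the fly, and whether reads of these arrays passed the authors' filters is not given in the sources used here.

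Dodeca carried 36 regions on 26 scaffolds, all of which RefSeq assigns to the centromere region of chromosome 3. Each region held 12 to 24 copies of the core CCCGTACT on its better strand, with a median of 18. The starts of neighbouring cores were 11 bp apart in 53.5% of 619 spacings and 12 bp apart in 13.2%, so the units of the array shown above recur at the length known for this satellite. The commonest 12-base string from the core on was CCCGTACTGGTC. Signals ran from 13.9 to 164, with a median of 89.6. The strongest, at chrUn_DS483724v1:1429-1778, had 164, with 85.6 in replicate 1 and 78.8 in replicate 2. Of 179 places in the assembly with at least 3 cores, 161 (89.9%) overlapped a ranked region and 39 (21.8%) a region past the threshold. The arms added 13 dodeca regions past the threshold out of 212 ranked (6.13%), with a median signal of 80.9, close to the 7.68% on the scaffolds. Mean GC content was 61.0% (SD 1.77 across 36 regions) on the scaffolds and 60.6% (SD 1.15 across 13 regions) on the arms. The 36 regions formed 1 sequence family.

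R1 regions were found on X scaffolds (78), the X base (17), unplaced scaffolds (8) and Y (1). On the arms 48 ranked regions matched R1 and 0 of them were past the threshold. The 104 regions matched annotated R1 copies at a median identity of 97.1%, with a lowest of 90.7%, and their signals ran from 2.38 to 507 with a median of 101. The strongest, at chrUn_CP007120v1:53116-53465, lies on a scaffold of rRNA genes, between the annotated transcripts pre-rRNA:CR45845 and pre-rRNA:CR45846, which end at 49485 and begin at 55104. It had a signal of 507, with 251 in replicate 1 and 237 in replicate 2. A second R1 region of that scaffold, at 52159 to 52508, had 108. On chrX_DS485303v1_random the region at 685 to 1034 had 401, with 195 in replicate 1 and 203 in replicate 2, and on chrX_DS485266v1_random the region at 828 to 1177 had 326, with 152 and 175 in replicates 1 and 2. The signals of each of these pairs were close in the replicates' own lists.

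To see which part of R1 the regions cover, their summits were placed on the longest annotated R1A1 copy of X, at chrX:23234385-23239717 on the plus strand, 5333 bp long. All 490 ranked R1 regions could be placed, 104 past the threshold and 386 weaker ones. Summits of the 104 were spread from one end to the other and were densest between bases 501 and 1000, with 26 of 74 ranked regions past the threshold (35.1%). The lowest share of the 500-bp steps was 10.9%, at 2001 to 2500, with 6 of 55. In the first 1000 bases lay 34 of 104 regions (32.7%), against 75 of 386 weaker ones (19.4%). From the replicates' own lists the share was 35.1% of 74 R1 regions past the threshold in replicate 1 and 31.8% of 66 in replicate 2, lists that share the regions and are not independent of the choice. At an IDR of at most 0.001 it was 20.8%, close to that of the weaker regions. The 2 highest signals were single regions, 507 between bases 4001 and 4500 and 401 between 4501 and 5000, and the next were 326 between 2001 and 2500 and 260 in the step before that. The highest between 501 and 1000 was 252. The median signals of these steps were 109, 83.8, 79.8, 110.0 and 95.3 in the order named. The highest medians were in other steps, 167 at 5001 to 5333, with 4 regions, and 119 at 2501 to 3000. Over all steps the medians did not rise or fall steadily along the element.

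**Figure D3:**
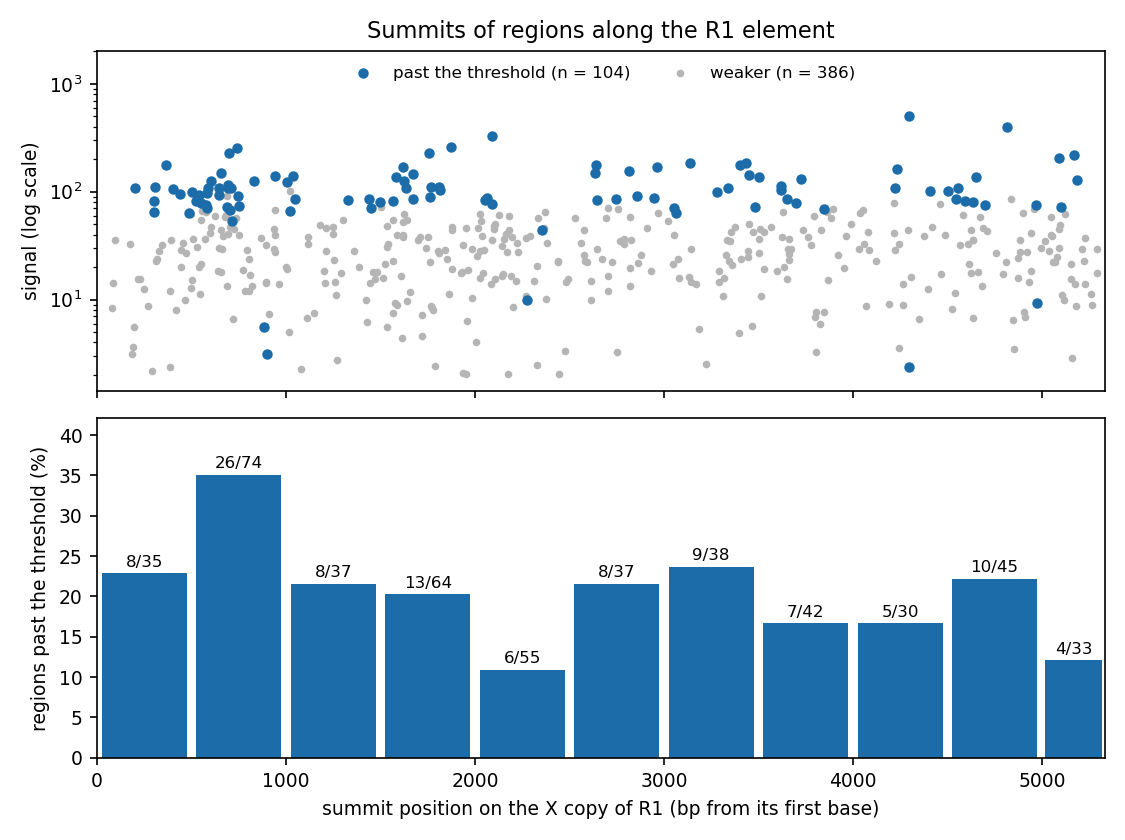
Top, signal on a log scale of the 104 R1 regions past the threshold (blue) and of the 386 weaker ones (grey) by the position of the summit on the 5333-bp X copy of R1, in bp from its first base. Bottom, percentage of ranked regions past the threshold in steps of 500 bp, with the counts above the bars. The share is highest, 35.1%, between 501 and 1000, and the single highest signals, 507 and 401, are beyond 4000.

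Sequence families were formed as well. When regions were joined at 80% identity over 50% of the shorter one, 12 families had 3 or more regions and together held 152 of the 236. Of the 12, 6 were families of R1. The largest, 38 R1 regions on 26 sequences, had summits at 203 to 1046 of the element, a median signal of 95.6 and a mean GC content of 60.4% (SD 4.85). Its strongest region, at chrX:22373153-22373502, had a signal of 252, with 116 in replicate 1 and 151 in replicate 2. Next among R1 were 24 regions at 2637 to 3845, led by chrX_DS484345v1_random at 796 to 1145 with 185, and 16 at 1329 to 1872, led by chrX_DS483897v1_random at 777 to 1126 with 260. A family of 13 at 4224 to 4814 was led by the region beside the rRNA transcripts, 5 at 4970 to 5187 by chrX_CP007103v1_random at 31032 to 31381 with 219, and 4 at 2054 to 2092 by the region of signal 326 named above. Their median signals lay between 85.4 and 129, and their ranges overlapped. The string CAGTG was in 87 of the 104 R1 regions (83.7%) and in 151 of all 236 (64.0%), against 65.7% of the regions on the rest of the arms and 47.4% of the weaker regions. It was not counted in the weaker R1 regions by themselves. The share on R1 therefore cannot be told apart from that of R1 sequence in general. GAGAGA was in 11.0%, against 17.6% on the arms and 14.2% of the weaker regions. These strings were counted on both strands over whole regions, and CAGTG was in 16.7% of the dodeca regions.

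The 8 rDNA regions included the strongest of the X base. At chrX:23216954-23217303 the signal was 925, with 589 in replicate 1 and 364 in replicate 2, the fifth highest of all 1330 regions. Its summit lies in the annotated rRNA pseudogene 28SrRNA-Psi:CR45859, and its first 188 bases matched the 28S gene 28SrRNA:CR45837 at 100%, from 2518 to 2705 of the 2715 bases annotated. That gene is shorter than 28SrRNA:CR45844, with 3970 bp, and R1 regions follow it on its scaffold. The printed junction shows where the match stops. At chrX:23222185-23222534 the signal was 904, with 467 in replicate 1 and 402 in replicate 2. That region matched no 28S gene outside the annotated pseudogenes and aligned to 28SrRNA-Psi:CR40596, a pseudogene of 6005 bp, at 98.3%. The third, at chrX_DS484057v1_random:478-827, had 688, with 299 in replicate 1 and 383 in replicate 2, and matched 28SrRNA:CR45844 from 2652 to 2886 at 99.6%. Of the 8, 5 aligned only to rRNA pseudogenes and 3 to 28S genes not annotated as pseudogenes, and all 8 had an IDR of at most 0.01 in replicate 2's own ranked list and 7 in replicate 1's. Within 1 region, a signal on 28S sequence cannot be told apart from one on inserted sequence next to it. Of 132 annotated rRNA genes and pseudogenes, 1 was overlapped by a region. How many of them lie on the sequences described here was not counted. A gene elsewhere could not be overlapped, so nothing is concluded from this.

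Telomeric elements carried 17 regions, of which 14 lay on Y scaffolds, 2 on unplaced ones and 1 on Y. HeT-A had 5, with signals of 98.0 to 290, and TART-A 12, with 9.21 to 161. The strongest HeT-A region, at chrY_DS485927v1_random:272-621, had 290, with 131 in replicate 1 and 152 in replicate 2. Next was chrY_DS483677v1_random at 11446 to 11795 with 227, with 82.7 in replicate 1 and 150 in replicate 2. All 5 HeT-A regions had an IDR of at most 0.01 in replicate 2's own ranked list, and 4 in replicate 1's. The strongest TART-A region, at chrY_DS485143v1_random:138-487, had 161, with 83.1 in replicate 1 and 83.9 in replicate 2. TART-A regions matched annotated copies at 83.7% to 98.9% identity, with summits from base 285 to base 10928 of the longest copy of 12349 bp. By share of ranked regions, 11.8% of 102 TART-A regions and 3.79% of 132 HeT-A regions were past the threshold. On the arms 2 of 42 ranked regions on telomeric elements were (4.76%).

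The 56 regions on other elements belonged to 19 of them. The DNA transposon 1360 had 9 regions, with signals from 11.9 to 152, out of 214 ranked (4.21%). The non-LTR retrotransposons F, G and baggins had 7 of 62 (11.3%), 6 of 39 (15.4%) and 4 of 31 (12.9%). The strongest of the class was on F, at chrX_DS485126v1_random:80-429, with a signal of 324, with 163 in replicate 1 and 152 in replicate 2. Its 50-base strings occurred a median of 110 times in the assembly, more than those of any other region. The strongest on an LTR retrotransposon was on Circe, at chrX:23377769-23378118, with 291, with 154 in replicate 1 and 134 in replicate 2. GATE, another LTR element, had 2 regions with 159 and 212 and only 1.12% of its 178 ranked regions past the threshold. The families of baggins, F and 1360 were led by chrX_DS485647v1_random at 771 to 1086 with 228, chrUn_DS484948v1 at 115 to 464 with 124 and chrX:23352289-23352638 with 113. All 6 regions of G lay on the X base, and 5 had an IDR of at most 0.01 in replicate 1's own ranked list, as did 5 in replicate 2's.

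Among the 15 regions with no match, the highest after the AAGGC array was 275, at chrX_DS483655v1_random:12504-12853, with 115 in replicate 1 and 170 in replicate 2. Y scaffolds held 5 of them, led by chrY_DS485552v1_random at 16 to 365 with 243 and chrY_DS485975v1_random at 444 to 793 with 220. Of the 15, 7 still had sequence found more than once in the assembly, by the measure used below.

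The regions of the X base and Y lay far from the start sites of protein-coding genes. Distances were not taken for the other ranked regions there. They therefore cannot be told apart from those of these stretches in general. On the X base 41 of 49 started beyond 23152305, the end of the last conservative peak, on an arm of 23542271 bp, and the nearest start site of a protein-coding gene was that of ATbp for 43, of CG14621 for 5 and of CG41562 for 1. Distances ran from 16221 to 426355 bp for ATbp and from 57252 to 88734 bp for CG14621. Of the 10 strongest, 9 were nearest to ATbp and 1 to CG14621. None of the 49 summits was within 1000 bp of such a start site, and 1 lay in any annotated gene. None of the 12 genes listed for the X base, among them su(f) and stnA, was overlapped or nearest. That list came from textbook knowledge and was not limited to genes from 22000000 bp on. A listed gene before that bound could not be overlapped, so nothing is concluded from this. On Y, 5 of the 7 regions were nearest to ARY, at 152163 to 286980 bp, 1 to FDY at 191019 bp and 1 to WDY at 239596 bp. None of the 13 listed Y genes, which include the male fertility dynein genes kl-2, kl-3 and kl-5, was overlapped. The strongest Y region, at chrY:989235-989584 on R1, had a signal of 139, with 84.7 in replicate 1 and 53.1 in replicate 2. The only annotated gene under a Y summit was Su(Ste):CR42432, one of the Suppressor of Stellate repeats, with 2 overlapping regions at chrY:979645-980193 of signals 69.7 and 11.9. Those 2 share their replicate values, 37.9 in replicate 1 and 34.3 in replicate 2, and match 1360. Among scaffolds with a region, chrUn_CP007120v1 was the only one with annotated genes, all of them rRNA genes, pseudogenes or parts of the rRNA transcript.

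The sequence of the regions differed in composition from the other occupied places. The bases up to 100 bp from the summit had a mean GC content of 54.4% (SD 6.70 across 236 regions), against 39.5% (SD 9.75 across 1094) on the rest of the arms and 45.2% (SD 9.62 across 4986) for weaker regions of the same sequences. By class it was 61.0% on dodeca, 56.9% on R1, 50.8% on telomeric elements, 50.4% on other elements, 47.0% on rDNA and 44.0% for regions with no match. Other elements on the arms past the threshold had 52.0% (SD 5.05 across 42). For 176 of 236 regions (74.6%), at least 50% of the 50-base strings occurred more than once in the assembly. A further occurrence can lie within the same region, as in a tandem array. This held for 30 of 1094 regions (2.74%) on the rest of the arms and 2716 of 4986 weaker regions (54.5%). The share was 87.5% on rDNA, 86.1% on dodeca, 78.6% on other elements, 76.0% on R1, 47.1% on telomeric elements and 46.7% for no match. It depended on the length of the match, with 57 regions at 100 bases. GC content and copy number both moved with membership and with the repeat class, and their part in the signal was not tested.

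**Figure D4:**
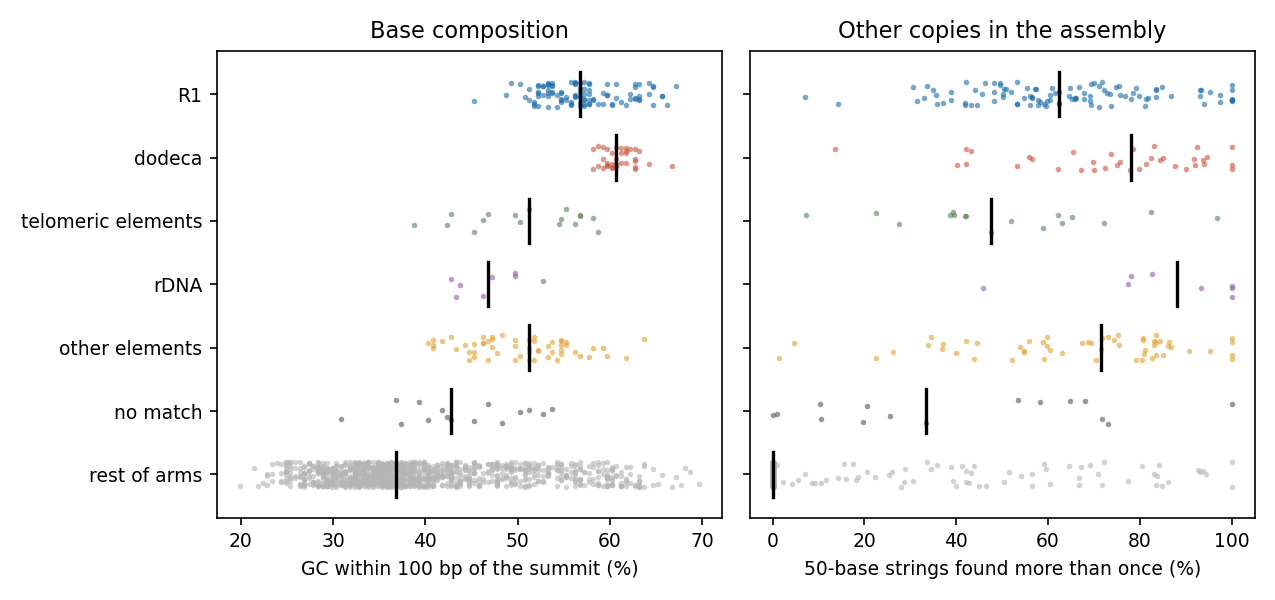
GC content within 100 bp of the summit (left) and percentage of each region's 50-base strings found more than once in the assembly (right), by repeat class, with the rest of the arms at the bottom. Each point is a region past the threshold and each black bar a median. The repeat classes have higher median GC and lie mostly above 40% recurring strings, while most regions of the arms are at 0.

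In the replicates' own ranked lists, 235 of the 236 regions overlapped a region of replicate 1 and all 236 one of replicate 2. Their signals there ran from 28.4 to 1543 in replicate 1, with a median of 49.4, and from 30.5 to 1861 in replicate 2, with a median of 51.6. The medians stood at the percentiles 99.1 and 99.5 of all ranked regions of replicates 1 and 2, and no region was below the percentile 95.9 in replicate 1 or 96.3 in replicate 2. Choice by IDR favours such high ranks. On the rest of the arms the medians were 99.3 and 99.4 and the lowest values 94.8 and 94.7. Overlapping neighbours can share replicate values: the region of the lowest signal, 2.38, had 39.7 in replicate 1 and 54.3 in replicate 2. Across the 235 regions the signals of the replicates had a Spearman's rho of 0.56, a description of regions that share libraries and were chosen by rank agreement, against 0.71 across 1075 regions of the rest of the arms. It was 0.56 across 103 R1 regions and 0.18 across 36 dodeca regions. An IDR of at most 0.01 within the replicate was reached by 136 regions in replicate 1 (57.6%), 133 in replicate 2 (56.4%) and 93 in both (39.4%), and 60 reached it in neither. On the rest of the arms the shares were 66.5%, 46.4% and 42.0%. The share in both was 87.5% on rDNA, 44.2% on R1, 41.2% on telomeric elements, 40.0% for no match, 37.5% on other elements and 16.7% on dodeca. Dodeca had the lowest share of the classes, with 16 of 36 regions past the threshold in neither replicate by itself.

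**Figure D5:**
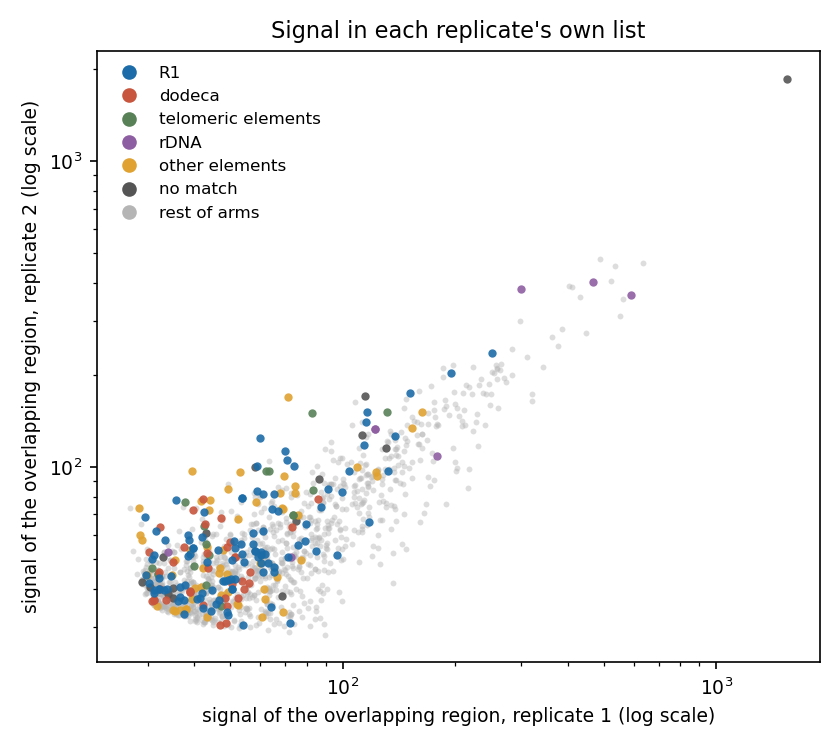
Signal of the overlapping region in the ranked lists of replicate 1 (x axis) and replicate 2 (y axis), both on log scales, for regions past the threshold, coloured by repeat class, with the rest of the arms in light grey. The AAGGC array stands apart at 1543 and 1861, and the dodeca regions lie at low signals in both replicates.

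The authors' thresholded lists treat these sequences unequally. Of the 236 regions, 101 were in the conservative list, against 1069 of 1094 on the rest of the arms. All 92 regions on X scaffolds and all 7 on Y were in it, while 0 of 25 on Y scaffolds, 0 of 63 on unplaced scaffolds and 2 of 49 on the X base were. Its last peak on X ended at 23152305. The replicates' own thresholded lists held 60 and 59 of the regions, again with 0 on Y scaffolds and unplaced scaffolds, although 17 and 20 of the Y scaffold regions had an IDR of at most 0.01 in the ranked lists of replicates 1 and 2. The conservative list therefore lacks the AAGGC array, the dodeca regions, the strongest rDNA regions of X and most of the telomeric-element regions. A further input file, whose content is not given in the sources used here, entered the thresholded lists, and its part in this was not tested.

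At the threshold, the 5 regions just inside had −log10 IDR values of 2.013 to 2.033 and signals of 30.9 to 69.2, and the 5 just outside 1.974 to 1.987 and 40.4 to 80.7. Dodeca supplied 3 of the 5 inside and 4 of the 5 outside.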

How the data were processed

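ChIP-seq peak lists of 2 biological replicates were used, on the dm6 build per the labels. No source used here gives the aligner, the peak caller or the depth. Per region the authors deposited a signal (their caller's value against a control), a −log10 q and a score (a scaled IDR), and the ranked lists add the −log10 IDR. The members and gene lists were chosen with earlier results of these data known. Members came from the ranked list that holds all 1170 conservative peaks at −log10 IDR of at least 2. Replicate values are those of the strongest overlapping region (at least 1 bp) in that replicate's list. Sequence came from RefSeq's Release 6, whose scaffolds were matched by name series and length, with FlyBase annotation 6.54. Repeat classes came from BLAST+ 2.17.0 against 4517 annotated transposable elements of at least 100 bp and the rRNA genes. Python 3.11.15, numpy 2.4.6 and pandas 2.3.3 were used, and the functions were checked on simulated sequences. Genes named are those nearest to each Y region and the 10 strongest X-base regions, those annotated on scaffolds with a region, and genes of the Y and X-base lists. CG41562 and Su(Ste):CR42432 fall outside that rule and were named after their values were seen. Regions named are the 10 strongest and those leading a class or family, and a few others chosen after their values were seen. The AAGGC and dodeca strings and the division of R1 were added after the data were seen. No test was run, because the IDR chose the regions and there is 1 group.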

Additional observations from a re-analysis of the deposited data

How the results depend on the processing

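The 236 regions numbered 59 at an IDR of at most 0.001, 101 in the conservative list and 103 in the other thresholded list. Of the 236, 59 were in replicate 2's own thresholded list and 60 in replicate 1's. By the ranked lists, a setting added after the data were seen, these counts were 133 and 136. They start from regions chosen with both replicates, so they do not show a choice made from 1 replicate. The replicates' own ranked lists held 163 (replicate 1) and 147 (replicate 2) regions past the threshold on these sequences. Starting the X base at 20, 21 or 23 Mb, an IDR of about 0.05, the other ranked list or counting overlapping neighbours once kept the number within 1.5 times. The share in replicate 1's thresholded list was 25.4% and in replicate 2's 25.0%. It was 24.6% and 23.3% with 50% overlap, 37.3% and 39.0% at an IDR of at most 0.001, 18.8% and 18% at about 0.05, and 57.6% and 56.4% with the ranked lists. The median signal was 181 at an IDR of at most 0.001 and 81.2 at about 0.05. As a percentile of all ranked regions it was 99.4, by signal and by −log10 q, with 99.1 to 99.5 in single replicates. Mean GC content was 54.6% within 50 bp, 53.7% over whole intervals, 54.7% and 55.0% in the conservative and the other thresholded list, and 53.5% to 53.8% in single replicates. Regions with strings found more than once numbered 213 with matches of 36 bases, 57 with 100 bases and 35 when 90% of the region had to recur. At 90% identity 10 families had 3 or more regions, and satellite strings gave 2 regions with 2 or 3 tandem copies. The share of R1 ran from 40.7% to 45.4%, except for 78.2% in the conservative list. The cause of these shifts was not tested. No paired analysis was possible because there is a single group. The unknown depth limits what a weak or missing region shows.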
